A study of Homo sapiens with 4 samples.

Results

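Pericentromeric ONECUT2 peaks are described here, meaning peaks that begin inside, or within 3 Mb of, the centromere gap of chromosomes 2, 3, 4, 5, 6, 9, 10, 11, 16 and 20 in the hg19 assembly. They were chosen by position, without regard to height. Of 14431 peaks in replicate 1, 184 met the rule, as did 136 of 11990 in replicate 2 and 43 of 4297 regions of an irreproducible discovery rate (IDR) set built to keep places ranked alike in replicates. The study ran chromatin immunoprecipitation with sequencing for the transcription factor ONECUT2 in unperturbed 22Rv1 cells, an established line of castration-resistant human prostate carcinoma. It holds 2 ChIP libraries and, as the control, 2 libraries of input DNA. Separate cultures are not stated for the ChIP libraries, so their differences may be technical. All peaks come from 1 cell line, and the antibody had no control other than input.

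ONECUT2 binds DNA through a CUT domain and a homeodomain, and is known in prostate carcinoma for acting against the androgen receptor programme and for favouring neuroendocrine traits. Centromeres are built from tandem satellite repeats, and the assembly leaves most of each array as a gap without sequence. The flanks of the gaps are known for fragments of satellite DNA, for recent segmental duplications and for few genes, although some flanks carry ordinary active genes. Where a repeat has more copies in cells than in the assembly, reads of many copies gather in 1 place, in input as well as in ChIP. For this reason the input background beneath each peak is given here with its fold enrichment, which is the ChIP pileup plus 1 over that background plus 1. The fold enrichment and the IDR signal are the authors' own values for each peak. ChIP pileup and background are both at the summit and are counted in DNA fragments.

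Pericentromeric flanks held fewer peaks per Mb of chromosome length than the rest of the same 10 chromosomes. These lengths leave out the centromere gaps but keep other stretches without sequence, whose part in the difference was not tested. Outside the flanks, the steps from 8 to 10 Mb from the gaps also lay below the rest in each list, while the step from 4 to 5 Mb lay above it. These steps were named after their values were seen. Density was 3.07 peaks per Mb in the flanks (interval 2.64 to 3.54) and 4.20 in the rest (4.10 to 4.31) in replicate 1. In replicate 2 it was 2.27 (1.90 to 2.68) in the flanks and 3.33 (3.24 to 3.43) in the rest. The IDR list had 0.717 regions per Mb (0.519 to 0.965) in the flanks and 1.14 (1.08 to 1.19) in the rest. The ratio of flanks to rest was 0.730 (0.627 to 0.845) in replicate 1, 0.680 (0.569 to 0.807) in replicate 2 and 0.630 (0.454 to 0.852) in the IDR list, so each exact interval lay below 1. All intervals are at 95% and cover counting error only. They treat each peak as a separate count, although part of the peaks stood in tight rows, described below, so they are too narrow. With peaks closer than 1 kb counted as 1, the ratio of flanks to rest was 0.673 in replicate 1 and 0.670 in replicate 2, without intervals. No p-value is given, because peaks of 1 library are not replicates of each other.

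Stretches without any peak moved with this difference. Of the 60 Mb of flanks, 66.2% lay in 1 Mb windows that held a peak of any list, against 83.9% of the rest. Counted over such windows alone, the ratio of flanks to rest was 0.925 (0.795 to 1.07) in replicate 1, 0.862 (0.722 to 1.02) in replicate 2 and 0.798 (0.575 to 1.08) in the IDR list. These intervals include 1. Since the windows were kept for holding a peak of these same lists, the restriction itself moves the ratio towards 1, and the values are given as a description. Flanks of 5 Mb gave ratios of 0.904 (0.812 to 1.003) and 0.830 (0.732 to 0.937), of which the first includes 1. What part of the empty windows lacks sequence in the assembly was not tested.

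Peak counts were uneven over the 20 sides of the 10 gaps. Neither replicate had a peak on 3 of these sides, which were the short-arm side of chromosome 2 and the long-arm sides of chromosomes 9 and 16. How much sequence the assembly holds on these sides was not tested, so a lack of peaks there is not read as a lack of binding. No peak of any list began inside a gap. Chromosome 16 had 0 pericentromeric peaks in replicate 1 and 3 in replicate 2, none of which overlapped a peak of the other replicate, against 488 and 314 peaks in its rest. Chromosome 9 had 3 and 1, both from its short-arm side. The IDR list had 0 regions near these 2 centromeres. Chromosome 11 had 5 peaks in replicate 1 and 8 in replicate 2, and no IDR region on its short-arm side.

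Most pericentromeric peaks came from chromosomes 4, 6, 10 and 20, which were grouped after their counts were seen. These chromosomes supplied 136 of 184 peaks (73.9%) in replicate 1 and 93 of 136 (68.4%) in replicate 2. Chromosome 20 was above its own rest in each list, with 6.50 peaks per Mb in the flanks and 4.24 in the rest in replicate 1, and 4.67 against 3.0 in replicate 2. Chromosome 4 had 4.67 peaks per Mb in the flanks and 3.43 in the rest in replicate 1, and 3.0 against 2.95 in replicate 2. Chromosome 2 was below its own rest in both replicates but above it in the IDR list, with 1.67 regions per Mb in the flanks and 0.884 in the rest. In each replicate 7 of the 10 chromosomes had a lower density in the flanks than in the rest, and in the IDR list 8 had.

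**Figure D1:**
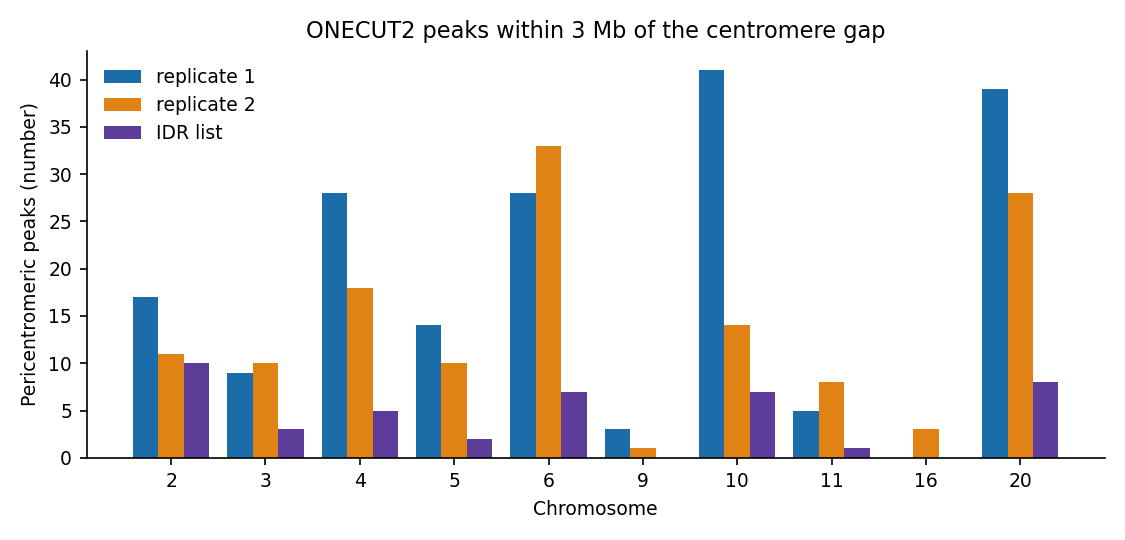
Number of pericentromeric peaks on each of the 10 chromosomes (x axis), as bars for replicate 1, replicate 2 and the IDR list. Chromosome 10 has 41 peaks in replicate 1 and 14 in replicate 2, while chromosome 16 has 0 and 3.

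The replicates disagreed most in number on chromosome 10, leaving aside chromosomes 9 and 16 with their few peaks. Its flanks held 41 peaks in replicate 1 against 14 in replicate 2, which is 2.93 times as many, and the rest of the chromosome held 540 against 393, which is 1.37 times as many. On chromosome 6 the flanks went the other way, with 28 and 33 peaks, against 797 and 651 in its rest. Over all 10 chromosomes the ratio of replicate 1 to replicate 2 was 1.35 in the flanks and 1.26 in the rest. With 1 library on each side of these ratios, they have no replicate check.

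Within the flanks, density was lowest in the Mb beside the gaps in replicate 2 and the IDR list, but not in replicate 1. In replicate 1 it was 3.10 peaks per Mb (interval 2.38 to 3.97) in the first Mb beside the gaps, 3.35 (2.60 to 4.25) in the second and 2.75 (2.07 to 3.58) in the third. In replicate 2 it was 1.60 (1.09 to 2.26), 2.40 (1.77 to 3.18) and 2.80 (2.12 to 3.64). In the IDR list it was 0.550 (0.275 to 0.984), 0.70 (0.383 to 1.17) and 0.900 (0.533 to 1.42). Neighbouring steps overlap in their intervals in all 3 lists, and the first and the third Mb do so too in replicate 1 and the IDR list. In replicate 2 their intervals also overlap, by a narrow margin. The 3 Mb limit is a choice of the rule. Just inside it lay 55 peaks of replicate 1 and 56 of replicate 2 from 2 to 3 Mb, and just outside it lay 85 and 52 from 3 to 4 Mb. Median fold enrichment in these steps was 3.31 and 3.39 inside, and 3.19 and 3.37 outside. On chromosome 20 the limit even parted neighbours, since a replicate 1 peak of fold 6.85 began at 32398839 inside it and one of fold 3.57 at 32400293 outside it.

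**Figure D2:**
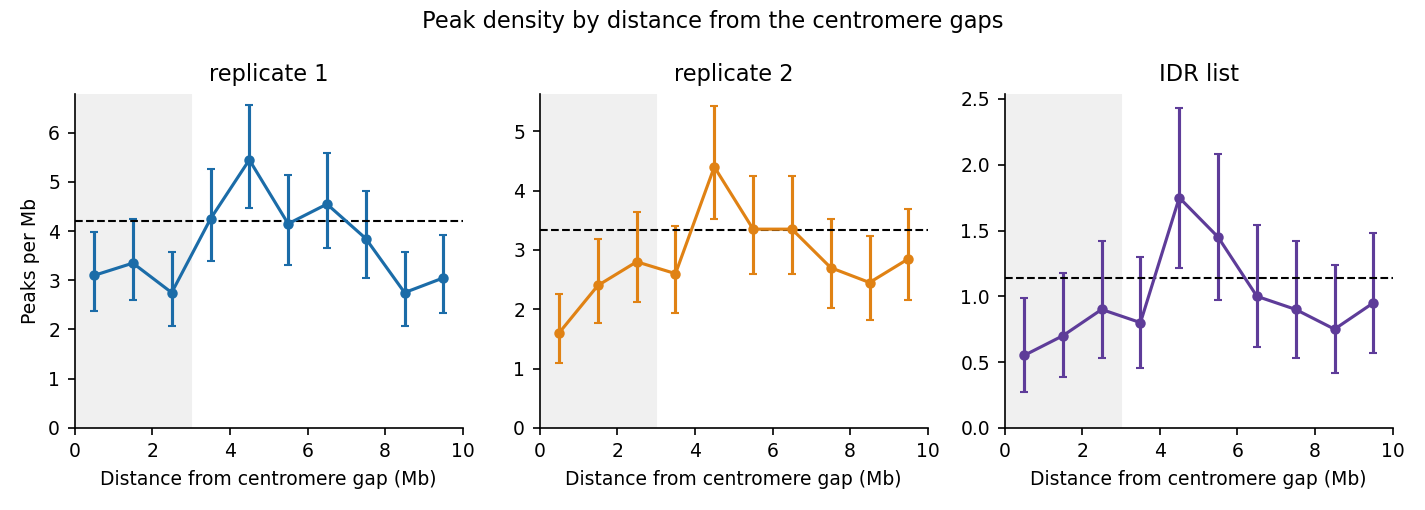
Peaks per Mb (y axis) in 1 Mb steps of distance from the centromere gaps (x axis), pooled over both arms of 10 chromosomes, for replicate 1, replicate 2 and the IDR list. Bars are exact 95% Poisson intervals, the grey area is the 3 Mb flank and the dashed line is the density of the rest of these chromosomes. The 3 steps inside the flank sit below the line in each list.

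The long-arm sides held more IDR regions than the short-arm sides. There were 33 regions on the long-arm sides, or 1.10 per Mb (interval 0.757 to 1.54), and 10 on the short-arm sides, or 0.333 per Mb (0.160 to 0.613). These intervals do not overlap. In the replicate lists they did, with 103 and 81 peaks in replicate 1 and 75 and 61 in replicate 2, long-arm sides first. The long arm of chromosome 2 gave 10 of the 33 regions, and the short-arm side of that chromosome gave none.

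The tallest pericentromeric peak lay on chromosome 20 from 25603701 to 25605671, 796 kb from the gap on the short-arm side. Its fold enrichment was 15.2 in replicate 1 and 10.1 in replicate 2, or 12.6 ± 3.58 (SD, n = 2). At its summit were 173 ChIP fragments in replicate 1, against 10.5 in the background, and 127 in replicate 2, against 11.7. It was also the pericentromeric region of highest IDR signal, 621 on a scale that the list does not name. By fold enrichment it ranked 86 in replicate 1 and 232 in replicate 2 among all peaks, and by IDR signal 135.

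The next in height lay on chromosome 3 from 93781210 to 93782585, 281 kb from the gap on the long-arm side. Its fold enrichment was 13.3 in replicate 1 and 9.52 in replicate 2, or 11.4 ± 2.70 (SD, n = 2), with 135 and 127 fragments over backgrounds of 9.20 and 12.4. A tall peak over an ordinary background was thus found close to a gap. In replicate 2 it was the nearest to the gap on that side. In replicate 1 a small peak of fold 2.97, which replicate 2 lacked, began at 93780889 between it and the gap, and another of fold 3.30 followed it at 93782768.

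A group of tall peaks stood on the long-arm side of chromosome 20. The one from 30864850 to 30865656 reached 9.64 in replicate 1 and 5.84 in replicate 2 by fold enrichment, or 7.74 ± 2.69 (SD, n = 2). The peak from 30945385 to 30946311 had 7.97 and 6.39, or 7.18 ± 1.12 (SD, n = 2), with 164 and 141 fragments over the higher backgrounds of 19.7 and 21.2. The peak from 30194589 to 30196415 had 8.12 and 6.07, or 7.09 ± 1.44 (SD, n = 2). These 3 were higher in replicate 1, by more than they differed from each other in replicate 2. The peak from 31778640 to 31779581 was alike in both, with 6.21 and 6.13, or 6.17 ± 0.0549 (SD, n = 2). The peaks at 30864850, 30945385 and 31778640 overlapped an IDR region in both replicates, of signal 233, 502 and 262. At 30194589 the replicate 1 peak was touched only at its edge by an IDR region of signal 164, which ended at 30194779, and the replicate 2 peak was not overlapped.

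Outside chromosomes 3 and 20, few pairs reached such heights. Chromosome 11 carried one from 57434317 to 57435861, enriched 6.94-fold in replicate 1 and 6.07-fold in replicate 2, or 6.50 ± 0.620 (SD, n = 2), with nearly equal fragments of 77 and 75. On chromosome 4 the tallest pair, from 54930642 to 54931221, had 6.33 and 5.03, or 5.68 ± 0.920 (SD, n = 2), and an IDR signal of 297. A second chromosome 4 region, from 48342029 to 48343706 in the IDR list, had a signal of 344 and fold enrichments of 4.92 and 5.76. The 8 highest IDR signals near centromeres ran from 297 to 621, and each of these regions had a peak in both replicates. The chromosome 10 region among them, from 38146035 to 38147731, had an IDR signal of 318 but fold enrichments of 2.73 and 2.00, over backgrounds of 18.4 and 19.0. The fourth by signal, on chromosome 20 between 32398963 and 32401508, combined an IDR signal of 403 with fold enrichments of 6.85 and 5.01. The tallest pairs of chromosomes 2, 5, 6 and 9 were lower, at means of 4.51, 4.52, 4.42 and 2.88, and chromosome 16 had no pair.

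At the median, pericentromeric peaks were close in height to the others. Median fold enrichment was 3.28 in the flanks and 3.29 in the rest in replicate 1, and 3.41 in the flanks and 3.41 in the rest in replicate 2. The 90th percentile was 4.90 in the flanks and 5.35 in the rest in replicate 1, and 5.02 in the flanks and 5.43 in the rest in replicate 2. Median fragments were 32 and 34 in replicate 1 and 28 and 30 in replicate 2, flanks first. Median width was 328 bp in the flanks and 317 bp in the rest in replicate 1, and 286 bp and 297 bp in replicate 2. In the IDR list the median signal was 182 in the flanks and 190 in the rest. A score of 1000, the top of its scale, was held by 22 of 43 regions (51.2%) in the flanks and 54.2% in the rest, against 56.3% of the whole list.

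Peaks enriched at least 6-fold made up 10 of 184 pericentromeric peaks in replicate 1 (5.43%, interval 2.64% to 9.77%), against 7.46% of all peaks in that list, and 7 of 136 in replicate 2 (5.15%, 2.09% to 10.3%), against 7.08%. The rest of the 10 chromosomes stood at 7.45% and 7.73%. The odds ratio of flanks to rest was 0.714 (0.334 to 1.36) in replicate 1 and 0.648 (0.253 to 1.39) in replicate 2, intervals that include 1. With so few tall peaks, a lower share was not detectable. Chromosome 20 supplied 6 of the 10 and 4 of the 7, and without it the mean odds ratio was 0.348 in place of 0.681. In the first Mb alone that mean was 1.30, but the replicates lay on opposite sides of 1, at 0.862 in replicate 1 and 1.73 in replicate 2. No interval was computed for these values, which rest on few tall peaks. At a fold enrichment of 10 or more there were 2 peaks in replicate 1 (1.09%), against 2.53% of all its peaks, and 1 in replicate 2 (0.735%), against 1.99%.

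The background set by the caller was also ordinary under most of these peaks. Its median was 9.86 fragments in the flanks and 9.89 in the rest in replicate 1, and 7.32 in the flanks and 7.32 in the rest in replicate 2. The background stood at the smallest value of its list, 4.37 and 4.87 fragments, under 34 of 184 pericentromeric peaks in replicate 1 (18.5%), against 16.3% of all its peaks, and 43 of 136 in replicate 2 (31.6%), against 27.5%. The odds ratios of flanks to rest were 1.12 (0.745 to 1.65) and 1.09 (0.740 to 1.60). Whether input under the peaks at this smallest value was lower still was not tested. In the first Mb beside the gaps the median background was 6.91 and 5.86 fragments, below the 10.6 and 7.74 of the third Mb.

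**Figure D3:**
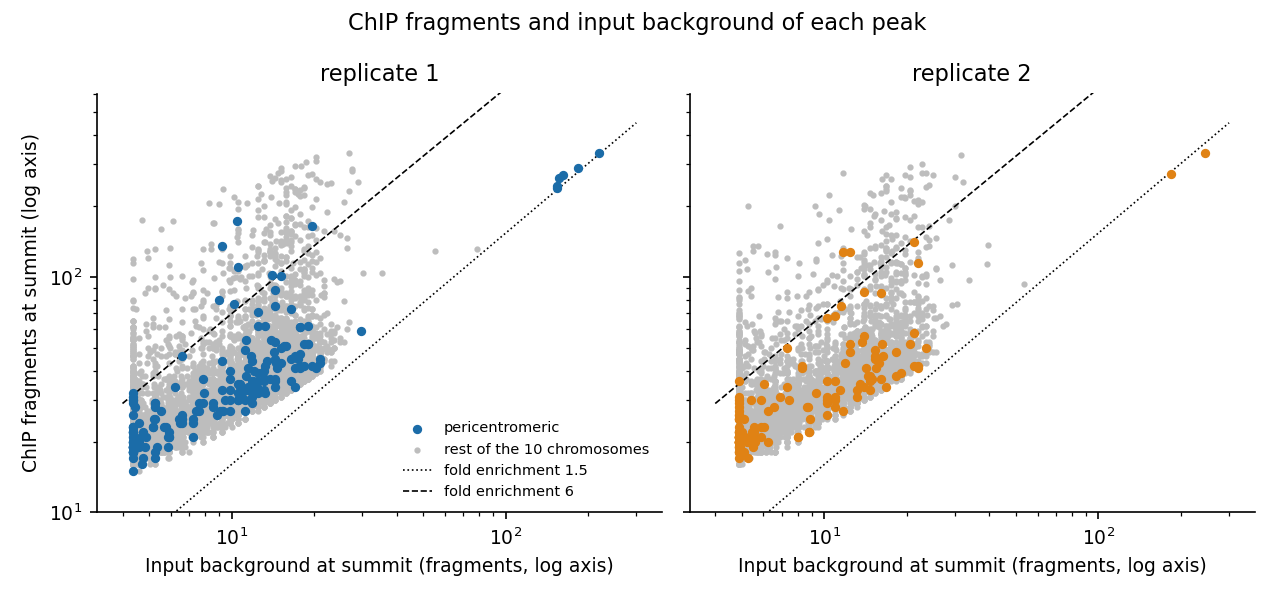
ChIP fragments (y axis) against input background (x axis) at the summit of each peak, both on log axes, for pericentromeric peaks in colour and the rest of the 10 chromosomes in grey. Dashed and dotted lines mark fold enrichments of 6 and 1.5. Blue and orange points lie among the grey ones, apart from 6 peaks in replicate 1 and 2 in replicate 2 at the upper right with backgrounds of 154 to 245 fragments.

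One place stood apart from the other peaks of the 10 chromosomes. On chromosome 6, from 58776578 to 58779304 and 21.7 to 23.4 kb from the gap on the short-arm side, replicate 1 had 6 peaks and replicate 2 had 2. They held 238 to 336 ChIP fragments in replicate 1 and 272 to 335 in replicate 2, more than any other pericentromeric peak in each list, the next having 173 and 141. Their backgrounds were 154 to 220 fragments in replicate 1 and 184 to 245 in replicate 2. Elsewhere on the 10 chromosomes the highest background was 78.9 in replicate 1 and 53.4 in replicate 2. On all chromosomes together, 36 peaks of replicate 1 and 17 of replicate 2 had a background of 100 or more, these 6 and 2 included, so such places also exist on other chromosomes. Fold enrichment was therefore low, from 1.52 to 1.68 in replicate 1 and from 1.36 to 1.48 in replicate 2, and no other pericentromeric peak of either list was lower.

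At its highest point, from 58778117 to 58779304, the chromosome 6 place had 336 and 335 ChIP fragments in the replicates over backgrounds of 220 and 245, with a fold enrichment of 1.44 ± 0.113 (SD, n = 2). The summits were at the same position, 0 bp apart. Between the replicates the background differed 1.11 times, higher in replicate 2, the same ratio as between the smallest values of the lists, 4.87 and 4.37. The pair beside it had 271 and 272 fragments over 162 and 184. Despite their low fold, the −log10 q of these peaks reached 11.3 in replicate 1 and 5.97 in replicate 2, since many fragments make a small excess improbable under the caller's Poisson model. None of them overlapped an IDR region. Which repeat, if any, lies there was not analysed here. After these, the pairs of highest background were on chromosome 20, at a mean of 21.2, 20.5 and 20.1 fragments.

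Fewer pericentromeric peaks than other peaks were found in both replicates. In replicate 1, 70 of 184 (38.0%, interval 31.0% to 45.5%) overlapped a replicate 2 peak, against 51.1% of the whole list. In replicate 2, 76 of 136 (55.9%, 47.1% to 64.4%) overlapped a replicate 1 peak, against 64.5%. In the rest of the 10 chromosomes these shares were 51.1% (49.8% to 52.4%) and 66.9% (65.5% to 68.2%). The odds ratio of flanks to rest was 0.588 (0.428 to 0.802) in replicate 1 and 0.628 (0.439 to 0.901) in replicate 2. Both shares rest on the same overlaps and are not independent of each other. Their intervals treat each peak as separate, although some peaks stood in tight rows, so they are too narrow. This holds for every interval of this share given below. Counting close peaks together was not done for this share. The share was lower in the flanks than in the rest on 8 of the 9 chromosomes with peaks in replicate 1 and on 8 of 10 in replicate 2.

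In replicate 1 the interval of this odds ratio lay below 1 with each of the 10 chromosomes left out, with flanks of 1, 2 and 5 Mb and for peaks with a −log10 q of at least 5. In replicate 2 it included 1 without chromosome 6 (0.762, 0.502 to 1.17), with flanks of 1 Mb (0.837, 0.388 to 1.88) and 5 Mb (1.01, 0.773 to 1.32), and at that q (0.763, 0.40 to 1.56).

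By class of fold, the overlap differed from the rest beyond the interval from 3 to 4 in both replicates and from 4 to 6 in replicate 1. Below a fold enrichment of 3, 13 of 69 pericentromeric peaks of replicate 1 were shared (18.8%, interval 10.4% to 30.1%), against 27.7% of the rest. From 3 to 4, 26 of 71 were shared (36.6%, interval 25.5% to 48.9%), against 49.6% of the rest. From 4 to 6, 21 of 34 were shared (61.8%, 43.6% to 77.8%), against 83.9% of the rest. In replicate 2 the widest difference was from 3 to 4, with 20 of 60 (33.3%, 21.7% to 46.7%) against 51.0%. Below 3 it was 33 of 46 (71.7%, 56.5% to 84.0%) against 77.2%, and from 4 to 6 it was 16 of 23 (69.6%, 47.1% to 86.8%) against 75.7%. The interval includes the share of the rest in both of these classes of replicate 2, and below 3 in replicate 1. All 10 pericentromeric peaks of replicate 1 at a fold of 6 or more were shared, and all 7 of replicate 2, as were 99.8% and 99.2% of such peaks in the rest. If each peak had the share of the rest in its class of fold, 50.4% of pericentromeric peaks in replicate 1 and 66.5% in replicate 2 would have been shared, which is above the 38.0% and 55.9% observed.

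**Figure D4:**
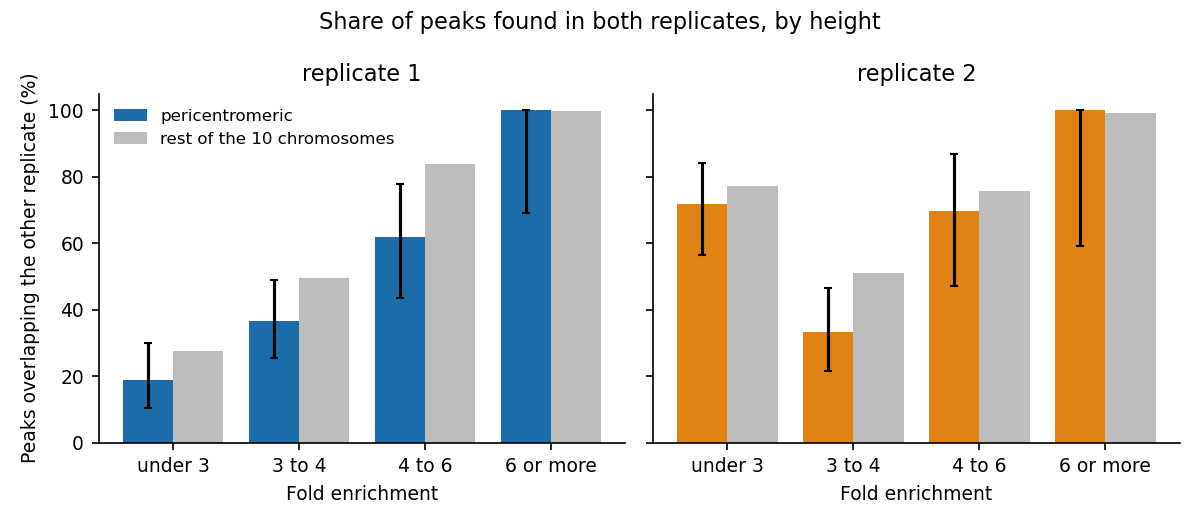
Percentage of peaks that overlap a peak of the other replicate (y axis) in 4 classes of fold enrichment (x axis), for pericentromeric peaks in colour with exact 95% binomial intervals and the rest of the 10 chromosomes in grey. In replicate 1 the bar from 4 to 6 is 61.8% for pericentromeric peaks and 83.9% for the rest, while at 6 or more all pericentromeric peaks of both replicates are shared.

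Peaks called in 1 replicate alone were narrower than shared ones, in the flanks as in the rest. The 114 such pericentromeric peaks of replicate 1 had a median width of 260 bp, 30 fragments and a fold enrichment of 3.04, against 520 bp, 40.5 fragments and 3.74 for the 70 shared ones. In the rest of replicate 1 the median width was 244 bp for unshared and 487 bp for shared peaks. The 60 of replicate 2 had 232 bp, 21 fragments and 3.51, against 363 bp, 36 fragments and 3.4 for the 76 shared ones. In the rest of replicate 2 the widths were 224 bp and 379 bp. Unshared pericentromeric peaks of replicate 2 lay over a background of 4.97 fragments, against 11.7 for shared ones, and the rest had 4.87 against 10.2. The tallest peak without a partner had a fold enrichment of 5.77 in replicate 1, on chromosome 5 from 51156365 to 51156786, with 30 fragments over the smallest background.

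Where the replicates did overlap, pericentromeric pairs could be set beside other pairs. Spearman's rho between replicates was 0.773 for fold enrichment over 70 pairs, against 0.729 over 3133 pairs of the rest. For fragments it was 0.906 against 0.850, and for background 0.908 against 0.916. All pairs come from the same libraries, so these correlations are descriptions. Each shared replicate 1 peak gives 1 pair, so a replicate 2 peak can stand in several, as on chromosome 10 from 38409302 to 38409959. The backgrounds of the lists differed by the same ratio, 1.11, at their smallest and at their highest pericentromeric value. Whether both lists were set against the same input was not tested, so the correlation of background is no replicate check. Summits were a median of 82.5 bp apart in the flanks and 80 bp in the rest. Fold enrichment was higher in replicate 1 in 53 of 70 pairs (75.7%) in the flanks and in 65.3% of the rest. The median log2 ratio of replicate 2 to replicate 1 was -0.21 in the flanks and -0.14 in the rest, with an SD over single pairs of 0.35 and 0.37. This difference was not tested.

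**Figure D5:**
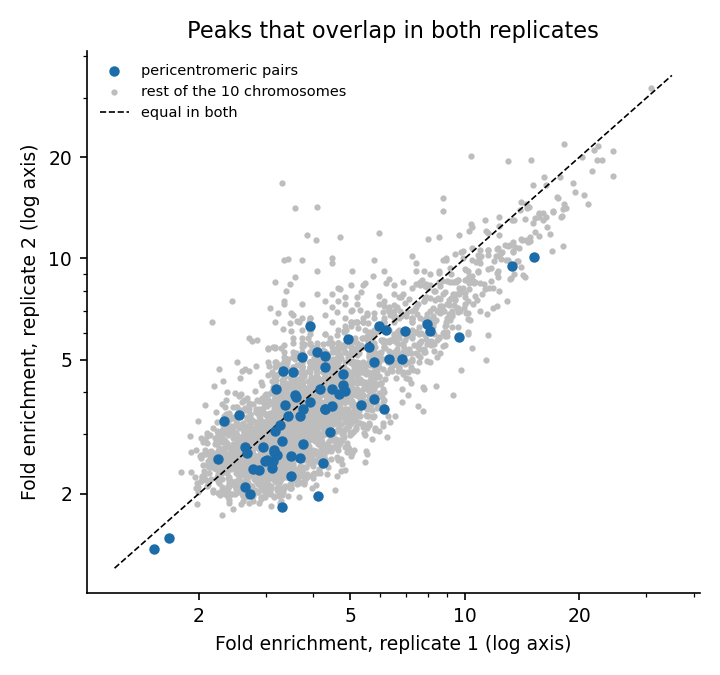
Fold enrichment in replicate 2 (y axis) against replicate 1 (x axis), both on log axes, for 70 overlapping pericentromeric pairs in blue and 3133 pairs of the rest of the 10 chromosomes in grey. The dashed line marks equal values, and 53 of the 70 pericentromeric pairs lie below it, on the side of replicate 1.

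A difference in overlap with the IDR list was not detectable at these counts. An IDR region overlapped 54 of 184 pericentromeric peaks of replicate 1 (29.3%, interval 22.9% to 36.5%), against 32.8% of the whole list, and 49 of 136 of replicate 2 (36.0%, 28.0% to 44.7%), against 31.4%. In the rest the shares were 31.0% and 30.3%. The odds ratios of flanks to rest were 0.923 (0.656 to 1.28) and 1.30 (0.889 to 1.87). IDR regions in the flanks had a median width of 1678 bp, against 328 bp for peaks of replicate 1 and 286 bp for peaks of replicate 2. An overlap of 1 bp with so wide a region is a loose criterion. Read from the IDR list, 31 of its 43 pericentromeric regions (72.1%, 56.3% to 84.7%) had a peak in both replicates, against 63.3% of the whole list and 64.7% of the rest. Another 6 had a peak in replicate 1 alone and 1 in replicate 2 alone. The other 5 had none (11.6%, 3.89% to 25.1%), against 18.3% of the whole list and 16% of the rest. Of these 5, 3 lay on chromosome 2 and 2 on chromosome 6.

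Some pericentromeric peaks formed tight rows. The window of 100 kb with the most peaks was on chromosome 10 from 38.4 to 38.5 Mb, with 10 in replicate 1 and 3 in replicate 2. All 13 lay within 5.68 kb, from 38406580 to 38412260. As background, this neighbourhood of the centromere is known for zinc-finger genes, but no gene could be placed at these peaks here. Fold enrichment ran from 3.18 to 6.14 in replicate 1 and from 3.58 to 6.30 in replicate 2. The background was at the smallest value under 7 of the 10 peaks and under all 3. The tallest pair, from 38406977 to 38407787, had 31 and 36 fragments and a fold enrichment of 5.95 and 6.30, or 6.13 ± 0.245 (SD, n = 2). No IDR region overlapped the row.

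On the other side of the same centromere, the window of chromosome 10 from 43.0 to 43.1 Mb had 7 peaks in replicate 1 and 3 in replicate 2, all within 5.65 kb. Here fold enrichment ran from 3.04 to 4.47 in replicate 1 and from 3.75 to 5.28 in replicate 2, and 1 IDR region covered 5 of the 10 peaks. On chromosome 6 the window from 64.2 to 64.3 Mb had 4 peaks in replicate 1 and 8 in replicate 2. Median background was 15.4 fragments under the first and 5.24 under the second, so the replicates marked places of unlike background in this window. Here 2 of the 4 and 3 of the 8 peaks overlapped the other replicate.

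By the gap positions of the rule, the peak nearest to a gap lay on chromosome 4, 9.40 kb into the long arm in replicate 1. It had 33 fragments, a background of 12.1 and a fold enrichment of 2.60. An IDR region of signal 153 covered it, beginning 8.87 kb from the gap. In replicate 2 the nearest peak on that side was 542 kb away. On the short-arm side of chromosome 6 the nearest were the peaks over high background, at 21.9 and 21.7 kb. On chromosome 20 they were 192 and 198 kb away on the short-arm side and 183 and 252 kb on the long-arm side. On the long-arm side of chromosome 11 the nearest peak was 2492 kb away in replicate 1 and 2493 kb in replicate 2. Distances are counted from gap positions rounded to 0.1 Mb by the rule. Distances below 0.1 Mb are therefore not exact, and small differences in distance between chromosomes are not meaningful.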

How the data were processed

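Per the labels' protocols, fixed 22Rv1 chromatin was sheared by sound, and DNA pulled down with a rabbit antibody, or input, was sequenced. Tools listed without roles are BWA 0.7.13-r1126 and MACS2 2.1.1, besides Picard and the hg19 build, per the submitters' processing notes. Per the file headers, both replicate lists are MACS2 peaks, whose deposited values are a fold enrichment (ratio), a −log10 p and a −log10 q. The authors' score in these lists restates q. The IDR list carries a deposited score and a signal value of unnamed scale. How reads that fit several places were treated is not given in the sources used here.

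Gaps, as the rule gives them in Mb, began at 92.3, 90.5, 49.7, 46.4, 58.8, 47.4, 39.3, 51.6, 35.3 and 26.4 on chromosomes 2, 3, 4, 5, 6, 9, 10, 11, 16 and 20, each 3 Mb long. Fragments and background were computed from fold and p with the MACS2 formulas, and whole fragments fitted 100% of peaks in both lists within 0.001 of −log10 p. The median was 34 and 30 fragments at a summit, which limits precision. Depth per library is not given in the sources used here. Densities use the standard chromosome lengths of hg19, less the centromere gaps of the rule. Other stretches without sequence were not subtracted. Overlap means 1 bp or more. Intervals are exact (Clopper-Pearson, Poisson, conditional for ratios), computed with scipy 1.17.1, and steps were tested on simulated data. Pairs join a replicate 1 peak to the overlapping replicate 2 peak of nearest summit, so a replicate 2 peak can recur.

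Named regions were the 8 of highest IDR signal, the 8 pairs of highest mean fold, the 5 of highest background, the tallest pair per chromosome, the 3 fullest windows of 100 kb and the peaks nearest to gaps. The members and these lists were chosen with earlier results of these data known. Regions outside this rule were chosen after their values were seen. No genome sequence or annotation of hg19 was used, so recognition sequences, repeats and genes were not analysed.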

Additional observations from a re-analysis of the deposited data

How the results depend on the processing

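Of 68 alternative values, 42 stayed within the spread between replicates, or within the interval for the IDR list, and 26 did not. Causes were not tested. The spread is the SD of 2 values around their mean, so values with 1 replicate left out always fall within it. Placing peaks by the summit changed no value. The count of 42 includes both kinds and is therefore no measure of stability. Values are means of the 2 replicates' ratios of flanks to rest. The 22 alternatives of both density ratios and the 13 of the overlap ratio stayed below 1. The peak density ratio (0.705) was 0.613 with flanks of 1 Mb, 0.867 with 5 Mb, 0.642 at −log10 q of at least 5, 0.619 without chromosome 20, 0.789 without chromosome 16, 0.894 over occupied windows and 0.493 for fold 6 or more. The odds ratio of fold 6 or more (0.681) was 1.30 with 1 Mb, 0.890 with 5 Mb, 0.744 at that q, 0.348 without chromosome 20, 0.860 without chromosome 6, 0.393 for fold 10 and 0.875 for 30 or more fragments. The ratio of shares overlapping the other replicate (0.790) was 0.694 with 2 Mb, 0.927 with 5 Mb and 0.870 at that q. That for IDR regions (1.07) was 0.865 with 50% reciprocal overlap. The median background ratio (0.998) was 0.746, 0.878 and 1.11 with 1, 2 and 5 Mb, 1.03 at that q, 0.844 without chromosome 20, 1.08 without chromosome 10, 1.03 for the 90th percentile and 0.960 without the chromosome 6 peaks of background 100 or more. With 1 replicate left out, these ran from 0.680 to 0.730, 0.648 to 0.714, 0.744 to 0.836, 0.946 to 1.19 and 0.997 to 1.00, in the order given. The settings of fold 6 for density, each chromosome's own rest, classes of fold and background of 100 were chosen after seeing the data. No paired analysis was possible because these ratios compare places within a list and come from no test between samples. The search for recognition sequences was not run, as it needs the hg19 sequence.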

Other observations

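Beyond the flanks, peaks were most frequent from 4 to 5 Mb from the gaps in the first 10 Mb of all 3 lists, a step chosen after its values were seen. Replicate 1 had 109 peaks there (5.45 per Mb, interval 4.48 to 6.57), replicate 2 had 88 (4.40 per Mb, 3.53 to 5.42) and the IDR list had 35 regions (1.75 per Mb, 1.22 to 2.43). In the rest of the 10 chromosomes the densities were 4.20, 3.33 and 1.14 per Mb. As the highest of 10 steps was picked, these intervals are no test of an excess. Farther out, density from 8 to 9 and from 9 to 10 Mb was 2.75 and 3.05 per Mb in replicate 1. It was 2.45 and 2.85 in replicate 2, and 0.75 and 0.95 in the IDR list. From 6 to 7 Mb it was above the rest in both replicates, at 4.55 and 3.35. Whether the low density is particular to the flanks was not tested.

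Pericentromeric peaks of both replicates were joined into rows where less than 10 kb separated them. This gave 149 rows, of which 72 were single peaks. Both replicates were present in 66 rows, replicate 1 alone in 52 and replicate 2 alone in 31. The 11 rows of 5 or more peaks held 84 of the 320 peaks. Besides those already described, the row on chromosome 4 from 48779845 to 48783429 had 5 peaks in replicate 1 and 3 in replicate 2. Fold enrichments there ran from 2.22 to 3.57, and 1 wide IDR region, from 48779224 to 48783779, covered all 8 peaks. The row on chromosome 10 from 43891815 to 43905039 had 7 and 1.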
